A study of Mus musculus with 30 samples.

Results

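The interferon-stimulated genes described here are Ifit1, Ifit3, Irf7, Oas1a, Oas2, Usp18, Mx1, Rsad2, Gbp2 and Ifi208. They were chosen by name as genes that interferon induces, with earlier results of these data known. All 10 were measured, each by 1 probe set, of 18784 genes that could be named among 21212 probe sets. The arrays measured RNA of preputial glands, paired modified sebaceous glands of the male mouse, in mice whose diet contained benzo[a]pyrene (BaP), a carcinogenic hydrocarbon of combustion, per the labels' protocols. The 3 genotypes were Cyp1a1/1b1 double knockout (DKO), Cyp1a1 knockout (KO) and wild type (WT), all male and labelled B6, and the groups were compared to follow changes during squamous cell carcinoma formation in the gland duct. BaP was taken orally at about 12.5 mg/kg/day in corn oil-soaked food from 6 weeks of age, and glands were collected after 0, 4, 8, 12 and 16 weeks. Mice at week 0 of all 3 genotypes had eaten no BaP, so exposure and age rise together in every genotype. Each of the 15 groups held 2 mice, 1 array each, for 30 arrays in all. Cyp1a1 and Cyp1b1 are cytochromes P450 that metabolise BaP, and the labels give their loss by genotype name, with no detail of the alleles.

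Interferons are secreted proteins that signal through receptors, JAK kinases and STAT factors to switch on a large set of antiviral and immune genes. Type I interferons act mainly through the interferon-stimulated response element (ISRE) in promoters, and interferon gamma acts mainly through the gamma-activated sequence (GAS). Skin and its glands express such genes during infection and inflammation, in both resident and immune cells.

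The promoter sequences are shown because the members are defined by interferon inducibility, and these letters are where that response is known to be read. RefSeq (GRCm38.p6) promoters were matched for 7 of the 10 members; those of Oas2, Usp18 and Mx1 are named only. In the 250 bases before each start, the ISRE core, GAAA then any 2 bases then GAAA, was searched on both strands. The core was present in 6 of 7 member promoters, 85.7%, against 2.98% of all 32851 promoter windows. Of 98 other interferon-pathway genes, 31.6% had it in any of their windows, a share by gene rather than by window. The GAS letters TTCNNNGAA, which read the same on both strands, were in 1 of the 7, that of Oas1a, against 7.02% of all windows and 23.5% of the pathway genes. Ifit1, Ifit3 and Oas1a each held 2 ISRE cores, and the 2 of Oas1a overlap. Gbp2 is shown as the member whose change passed the test in DKO glands, Ifit1 as a promoter with 2 cores, and Irf7 as the member promoter without a match. Each run is the 250 bases before the start, 5′ to 3′ on the gene's strand, with matches to the ISRE core in capitals; TTTCACTTTC and TTTCAGTTTC are cores read on the opposite strand. Gbp2 lies at chr3:142620413-142620662 (plus strand), Ifit1 at chr19:34640639-34640888 (plus strand) and Irf7 at chr7:141266425-141266674 (minus strand).
Gbp2: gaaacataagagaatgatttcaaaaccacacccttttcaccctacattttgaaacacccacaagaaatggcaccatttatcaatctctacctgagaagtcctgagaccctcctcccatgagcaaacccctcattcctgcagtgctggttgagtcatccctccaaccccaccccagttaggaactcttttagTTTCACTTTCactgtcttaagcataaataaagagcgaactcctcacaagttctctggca
Ifit1: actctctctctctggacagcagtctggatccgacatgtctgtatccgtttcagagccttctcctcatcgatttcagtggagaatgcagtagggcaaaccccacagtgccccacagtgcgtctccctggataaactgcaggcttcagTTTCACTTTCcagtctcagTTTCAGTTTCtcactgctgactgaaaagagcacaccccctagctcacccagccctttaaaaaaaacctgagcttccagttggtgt
Irf7: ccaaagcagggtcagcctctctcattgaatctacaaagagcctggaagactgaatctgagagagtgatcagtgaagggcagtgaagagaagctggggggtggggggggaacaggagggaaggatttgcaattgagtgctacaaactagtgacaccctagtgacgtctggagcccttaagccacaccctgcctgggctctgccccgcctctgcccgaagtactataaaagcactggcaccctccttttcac
The Gbp2 core lies 59 to 50 bases before the start, and the Ifit1 cores lie 104 to 95 and 85 to 76 bases before it. A missing match for Irf7 says only that these letters are not in this window.

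The values are log2 intensities per probe set after RMA, a background correction, normalization and probe summary. Array medians ran from 5.12 to 5.47. Of the arrays, 9 had a narrow range of values (SD of all log2 values 1.15 to 1.42) and 21 a wider one (SD 1.70 to 2.08). Except for week 0 replicate 1 and week 12 replicate 2, every DKO array (8 of 10) had the narrow range, as did KO week 12 replicate 2. Cyp1a1 lay between 3.96 and 6.14 in arrays labelled DKO, between 3.67 and 4.80 in KO arrays and between 4.26 and 4.74 in WT arrays. Cyp1b1 ran from 7.48 to 10.57 in arrays labelled DKO, from 6.66 to 8.82 in KO arrays and from 6.17 to 6.77 in WT arrays. A higher Cyp1b1 in arrays labelled DKO goes against a loss of that transcript, and whether the probes lie in the deleted part was not tested; DKO below means the arrays labelled so. The mean of 7 sebocyte markers ran from 6.53 to 10.10 over all arrays and that of 6 keratinocyte markers from 7.49 to 9.74. That of 5 skeletal muscle markers ran from 4.70 to 6.49. Without a measured background, the presence of these cell types was not tested.

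Intensities of different probe sets cannot be compared, so each gene is set against itself only. Arrays of 1 group differed more in DKO mice: the median within-group SD over the 10 members was 0.45 in DKO, 0.34 in KO and 0.22 in WT, and over all genes it was 0.56, 0.34 and 0.17.

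**Figure D1:**
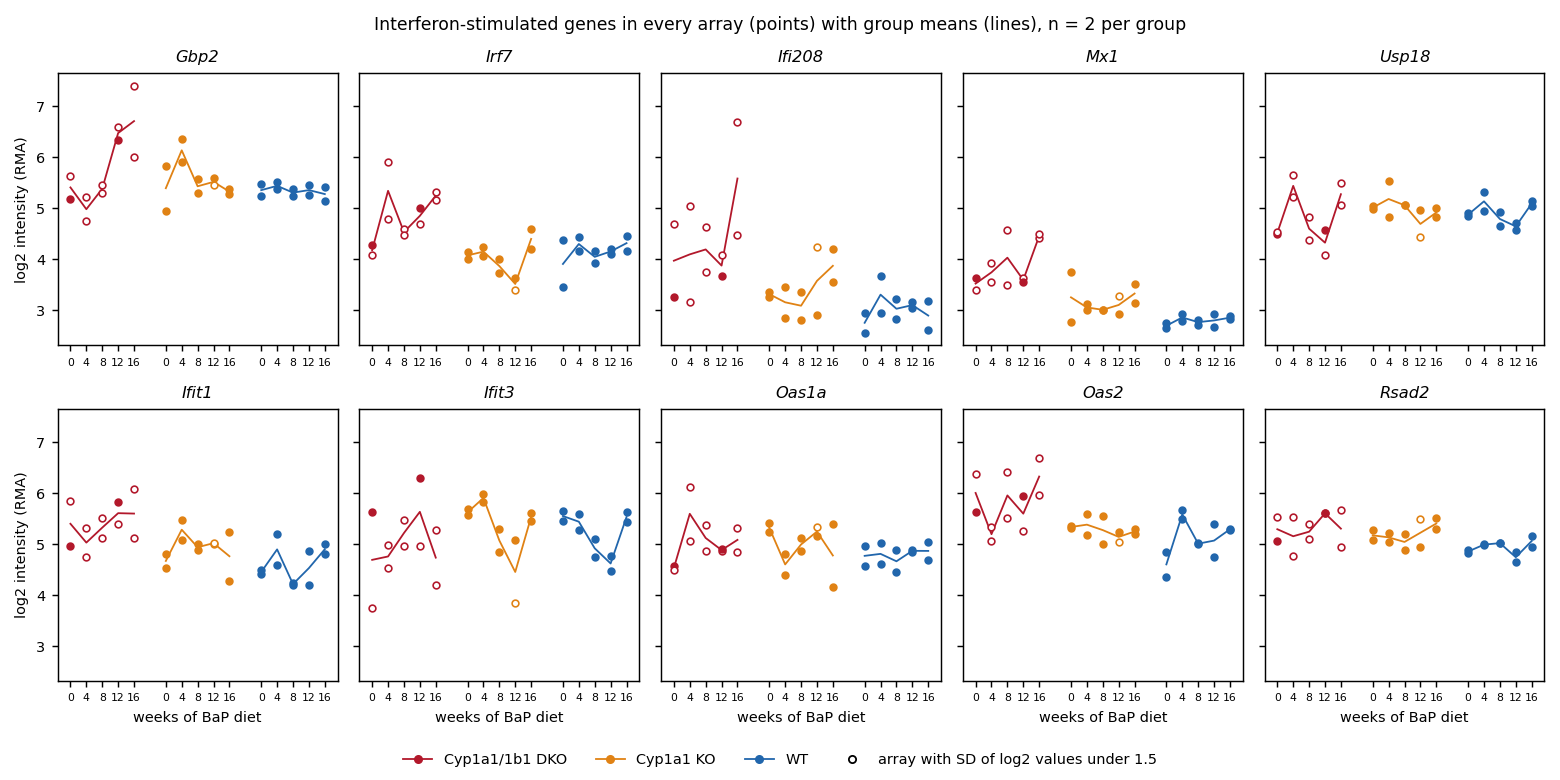
Each of 10 panels plots the log2 intensity of an interferon-stimulated gene (vertical axis) against weeks of BaP diet for DKO, KO and WT mice; points are single arrays, lines join the means of 2 arrays, and open points are arrays with an SD of log2 values under 1.5. Gbp2 reaches 7.41 and 6.01 in the DKO arrays of week 16, and Irf7 lies above both of its week 0 values in every later DKO array on this deposited scale.

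Guanylate-binding protein 2 (Gbp2), an interferon-inducible GTPase that acts on vacuoles holding intracellular pathogens, was the only member to pass the test in DKO glands at week 16. In DKO mice, Gbp2 was 5.18 and 5.64 at week 0, 5.22 and 4.74 at week 4, 5.31 and 5.46 at week 8, 6.60 and 6.35 at week 12, and 7.41 and 6.01 at week 16. The DKO arrays of weeks 12 and 16 lie above all DKO arrays of the earlier weeks. In KO mice, Gbp2 was 4.95 and 5.84 at week 0, 5.92 and 6.36 at week 4, 5.57 and 5.30 at week 8, 5.59 and 5.45 at week 12, and 5.29 and 5.37 at week 16. In WT mice it stayed between 5.14 and 5.51, with a median of 5.38. The KO week 4 arrays are the only KO or WT arrays above 5.84, and the WT arrays lie close together.
Gbp2 averaged 6.71 ± 0.99 at week 16 and 5.41 ± 0.33 at week 0 in DKO (SD, n = 2 each), a log2 difference of 1.30 ± 0.37 (SE) or 2.46-fold, with an adjusted p of 0.0491 in limma. It was the 1 called member of 10, against 4.04% of all genes called in either direction and 2.04% called higher. Without DKO week 16 replicate 1 the difference was 0.60 (adjusted p 0.449), and without DKO week 0 replicate 1 it was 1.07 (adjusted p 0.214). Leaving out any of the 10 WT arrays or 6 of the 10 KO arrays, which enter only through the shared spread, gave adjusted p from 0.0617 to 0.0673. The call was also lost with median centring (0.0595), the replicate block (0.0581), the label number block (0.0980), array weights (0.905) and a fit of only the groups compared (0.931). At week 12 the Gbp2 difference was 1.07 and the arrays did not overlap (12.7% of all genes were higher without overlap), but the adjusted p was 0.310. In the order of the 15 group means, DKO week 16 and DKO week 12 came first, followed by KO week 4 (6.14 ± 0.31), and these 3 did not differ beyond their spread. More cells of a type and more RNA per cell cannot be told apart in such bulk tissue.

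Irf7, the transcription factor that amplifies the production of type I interferon, was higher in every fed DKO array than in both week 0 arrays on the deposited scale, but did not pass the test. In DKO mice, Irf7 was 4.28 and 4.08 at week 0, 5.90 and 4.79 at week 4, 4.59 and 4.48 at week 8, 4.70 and 5.01 at week 12, and 5.17 and 5.33 at week 16. Its log2 difference was 0.82 ± 0.27 over weeks 4 to 16 (adjusted p 0.132 in limma) and 1.07 ± 0.34 at week 16 (adjusted p 0.0702). Irf7 was called in 2 of 38 alternatives at week 16 (difference 0.97 to 1.17) and in 1 of 38 over weeks 4 to 16 (0.68 to 0.96). Each of these calls came with a DKO week 4 array left out. Such an array enters the week 16 difference only through the shared spread. With quantile normalization the week 16 difference was 1.14 (adjusted p 0.133 in limma), and with array weights the adjusted p was 0.939. As deposited, Irf7 ran from 3.41 to 4.60 in KO arrays and from 3.45 to 4.46 in WT arrays, so most fed DKO arrays lie above both ranges. In the order of deposited group means the 4 fed DKO groups came first, from 5.34 ± 0.79 at week 4 to 4.54 ± 0.076 at week 8. KO week 16 was next at 4.40 ± 0.27 (SD, n = 2 each), and DKO week 8 and KO week 16 did not differ beyond their spread. After quantile normalization the DKO week 8 arrays were at 4.16 and 3.88, below both WT week 16 arrays (4.38 and 4.63). The DKO to WT difference of Irf7 over 5 weeks was then 0.11 (adjusted p 0.723 in limma).

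Among the antiviral effectors, none passed the test in the change with time in any genotype. Ifit1 binds viral RNA with an incomplete cap and blocks its translation, and its difference in DKO glands at week 16 was 0.20 ± 0.39. Ifit3, a related protein, differed by 0.044 ± 0.51. Oas1a, which makes the 2′-5′-linked oligoadenylates that switch on RNase L, was between 4.85 and 6.12 in the 8 fed DKO arrays, against 4.58 and 4.48 at week 0. All fed DKO arrays lie above the week 0 arrays for Oas1a, and the difference over weeks 4 to 16 was 0.64 ± 0.30 (adjusted p 0.293 in limma). Non-overlap of fed and week 0 arrays held for 2 of 10 members, Irf7 and Oas1a, both higher; 4.42% of all genes had it in either direction and 2.24% had it higher. After quantile normalization it held for 0 of 10 members, against 3.84% of all genes in either direction and 1.63% higher.
Oas2, an enzyme of the same kind, had DKO arrays at 6.68 and 5.96 at week 16, against 5.63 and 6.38 at week 0, and its difference was 0.32 ± 0.36. Its DKO arrays were already high at week 0, so the groups overlap. Rsad2, or viperin, which makes a chain-terminating nucleotide against viral polymerases, differed by 0.012 ± 0.31 in DKO at week 16 (95% interval -0.63 to 0.65).

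Mx1, a GTPase that blocks influenza virus in mice with an intact allele, is known to carry a large deletion in B6 mice, so the signal here is that of whatever transcript the probes read. It was 4.42 and 4.50 in DKO at week 16, against 3.64 and 3.41 at week 0. The week 16 arrays do not overlap with those of week 0, and the difference was 0.93 ± 0.33 (adjusted p 0.104 in limma). Usp18, which removes ISG15 from proteins and restrains signaling at the type I interferon receptor, was 5.06 and 5.50 at week 16, against 4.50 and 4.53 at week 0, with a difference of 0.76 ± 0.30 (adjusted p 0.143). Ifi208, of the p200 family of interferon-inducible proteins, was 4.48 and 6.69 at week 16, against 3.26 and 4.68 at week 0, with a difference of 1.61 ± 0.63 (adjusted p 0.137). Leaving out DKO week 16 replicate 2 gave 0.51 and week 0 replicate 1 gave 0.90, while leaving out week 16 replicate 1 gave 2.72 (adjusted p 0.0542) and week 0 replicate 2 gave 2.32, a call (adjusted p 0.0348). The Ifi208 groups overlap and replicate 2 was the higher array at both times.

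Across the 10 members in DKO, all 10 differences at week 16 were above 0 as deposited, with a median of 0.65 against 0.041 for all genes. With both quantile normalization and median centring 8 were above 0, Ifit3 (-0.10 and -0.045) and Rsad2 (-0.16 and -0.077) being below. Over all alternatives the sign turned in 3 for Ifit1, 4 for Ifit3, 2 for Oas2 and 5 for Rsad2. At week 16, the arrays of 5 of 10 members did not overlap with those of week 0: Irf7, Oas1a, Usp18, Mx1 and Gbp2. All were higher, against 18.6% of all genes higher and 33.5% in either direction. After quantile normalization 3 did not overlap (Irf7, Usp18 and Gbp2), all higher, against 16.7% of all genes higher and 34.4% in either direction. At an unadjusted p under 0.05 there were 5 of 10 members, against 22.1% of all genes. Over weeks 4 to 16, 0 of 10 members were called, against 0.974% of all genes. At an unadjusted p under 0.05 there were 2 of 10, against 16.2% of all genes, and 8 differences were above 0, with a median of 0.41 against 0.036 for all genes. Members called at weeks 4, 8 and 12 alone numbered 0 at each, against 0.522%, 0.953% and 0.554% of all genes. Members with an unadjusted p under 0.05 numbered 4, 0 and 1, against 16.1%, 14.5% and 9.15% of all genes. Of the 4 at week 4, Oas2 was lower (-0.81) and the others were higher. Of the pair of DKO arrays with a wider range, week 12 replicate 2 against week 0 replicate 1, the values differed by 1.17 for Gbp2, 0.73 for Irf7, 0.87 for Ifit1 and -0.080 for Mx1, values of 1 array each that were not tested.

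**Figure D2:**
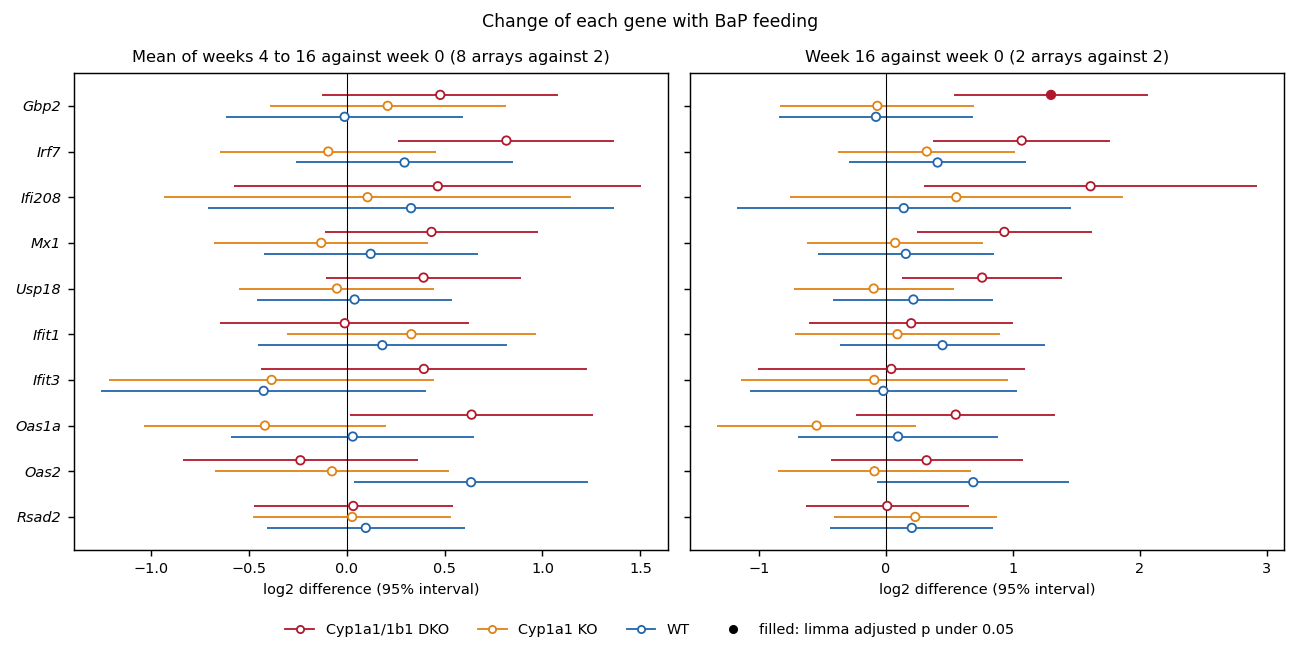
The log2 difference from week 0 (horizontal axis) is drawn for each member in DKO, KO and WT mice over weeks 4 to 16 and at week 16; bars are 95% intervals of the limma fit and filled points are called. All 10 DKO differences at week 16 lie above 0 as deposited (8 after quantile normalization), with Gbp2 at 1.30, while the KO differences at week 16 have a median of 0.0041.

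In KO and WT mice no member passed the test with time. In KO mice 0 of 10 members and 0% of genes were called over weeks 4 to 16 in limma (258 genes and 0 members at an unadjusted p under 0.05), with a median of -0.062 over the members. The largest KO difference over weeks 4 to 16 in either direction was that of Oas1a, at -0.42. In WT mice 0 of 10 members and 0% of genes were called (154 genes and 1 member at an unadjusted p under 0.05), and the median was 0.11. That member was Oas2, which was between 4.75 and 5.66 in the 8 fed arrays, against 4.85 and 4.35 at week 0, with a difference of 0.64 ± 0.29. Its WT groups overlap at a single array, week 12 replicate 1. At week 16 alone, 0 members and 0% of genes were called in each of the 2 genotypes (217 genes in KO and 227 in WT at an unadjusted p under 0.05, no member in either).

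The difference between genotypes in the change with time was tested directly over weeks 4 to 16. The DKO change minus the WT change had 0 of 10 members called, against 0.0373% of genes, with 1 member at an unadjusted p under 0.05, against 4.74% of genes: Oas2, at -0.87 ± 0.41, lower in DKO. The DKO change minus the KO change had 0 called, against 0.0426% of genes, with 2 members at an unadjusted p under 0.05, against 7.30% of genes, Oas1a (1.05 ± 0.42) and Irf7 (0.91 ± 0.38; smallest adjusted p 0.614 in limma). The KO change minus the WT change had 0 called, against 0% of genes. A larger change of these genes in DKO mice is therefore not shown. These contrasts share arrays with the separate changes above.

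Averaged over the 5 weeks, 7 of 10 members were higher in DKO than in WT mice in limma, against 74.6% of all genes called and 43.6% called higher, so the share lies in a contrast where most genes were called. Mx1 ran from 3.41 to 4.57 in DKO arrays, from 2.76 to 3.75 in KO arrays and from 2.65 to 2.93 in WT arrays. Every DKO array lies above every WT array for Mx1, as for 9.85% of all genes, with KO arrays overlapping both. The DKO to WT difference was 1.07 ± 0.15 for Mx1 (adjusted p 3.5e-06), 1.33 ± 0.28 for Ifi208, 0.79 ± 0.17 for Ifit1, 0.70 ± 0.16 for Oas2, 0.69 ± 0.15 for Irf7, 0.44 ± 0.16 for Gbp2 and 0.39 ± 0.14 for Rsad2. Oas1a (0.25), Usp18 (-0.076) and Ifit3 (-0.20) did not pass.
Ifi208 ran from 3.16 to 6.69 in DKO arrays (median 4.28), from 2.82 to 4.24 in KO arrays (median 3.36) and from 2.56 to 3.66 in WT arrays (median 2.999). Ifit1 ran from 4.75 to 6.08 in DKO (median 5.35), from 4.28 to 5.48 in KO (median 5.002) and from 4.19 to 5.21 in WT (median 4.54). Oas2 ran from 5.06 to 6.68 in DKO (median 5.79), from 5.001 to 5.58 in KO (median 5.26) and from 4.35 to 5.66 in WT (median 5.15). For these 3 genes the medians lie in the order DKO, KO, WT, and the ranges of all genotypes overlap. Ifit3 had its lowest median in DKO, with 3.75 to 6.30 in DKO (median 4.98), 3.83 to 5.99 in KO (median 5.51) and 4.47 to 5.64 in WT (median 5.36). Usp18 ran from 4.08 to 5.66 in DKO, from 4.43 to 5.54 in KO and from 4.58 to 5.33 in WT, so the DKO arrays span both ends.
The level of all genes moved too: the median DKO to WT difference was 0.20 over all genes as deposited and 0.035 after quantile normalization of the arrays, and the members' median was 0.57 and 0.12. After quantile normalization 2 of 10 members were called, Oas2 higher (0.73) and Usp18 lower (-0.52), and Mx1 differed by 0.13; 6999 of 18784 genes were called in all. Oas1a changed sign there (-0.15). The label numbers of the arrays, 1 to 20 and 22 to 33, split the genotypes almost completely, and with that split as a block 0 members were called, with Mx1 at 1.03 and Rsad2 at -0.070, while Usp18 (0.15) and Ifit3 (1.20) lay above 0; 160 genes were called in all. Of the narrow-range arrays, 8 were DKO and none WT, and the part of that range in these differences was not tested.

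**Figure D3:**
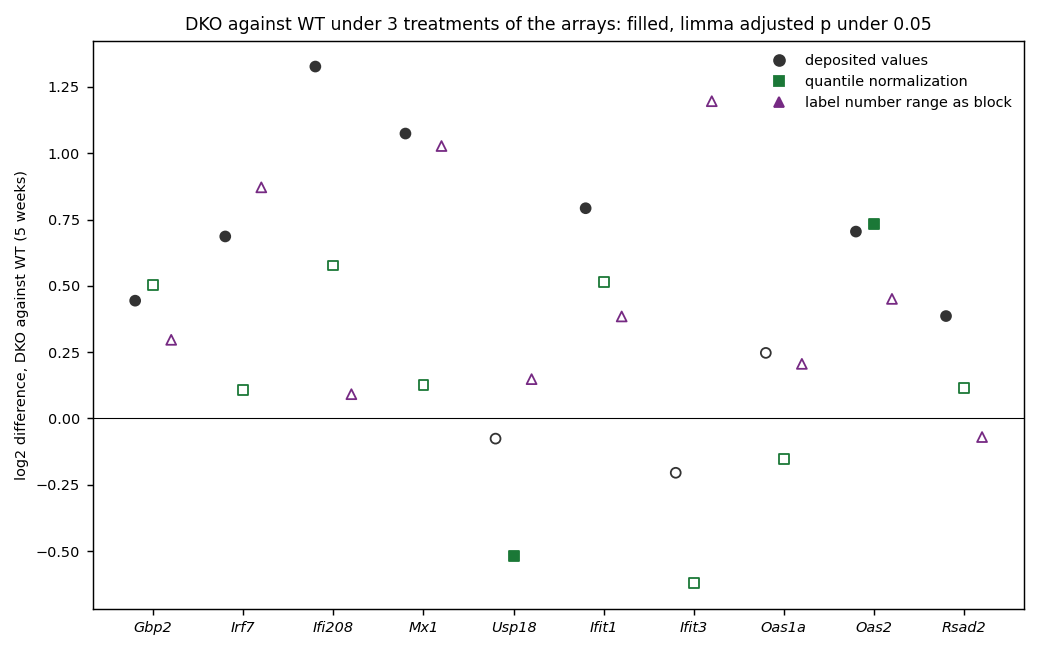
The DKO minus WT log2 difference over 5 weeks is drawn for each member on the deposited scale, after quantile normalization and with the label number range as a block; filled symbols are called by limma. Mx1 lies at 1.07 as deposited and 0.13 after quantile normalization, and Oas2 lies at 0.70 and 0.73.

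DKO mice had 5 of 10 members higher than KO mice over the 5 weeks, against 59.8% of genes called and 34.0% called higher: Ifi208 (0.94), Irf7 (0.83), Mx1 (0.72), Oas2 (0.54) and Ifit1 (0.46). KO mice had 0 of 10 members called against WT, against 4.33% of genes (1 member, Mx1, at an unadjusted p under 0.05, with 0.35 ± 0.15 and an adjusted p of 0.198 in limma). At week 0, before any BaP, 1 member was called between DKO and WT, Oas2 (1.40 ± 0.36, adjusted p 0.0356 in limma), against 3.90% of genes. At week 16, 5 members were called higher in DKO than in WT, against 39.0% of genes called and 20.8% called higher: Ifi208 (2.69), Mx1 (1.60), Gbp2 (1.43), Oas2 (1.03) and Irf7 (0.93). Against KO at week 16 there were 3, Gbp2 (1.38), Mx1 (1.13) and Oas2 (1.08), against 21.5% of genes called and 9.72% called higher. The contrasts at week 0 and week 16 alone were not run under the alternatives. Both DKO arrays of week 16 had the narrow range and label numbers 28 and 33. All KO and WT arrays of week 16 had the wider range and lower label numbers, so genotype cannot be told apart from these there. After quantile normalization Mx1 was 3.64 and 3.89 in DKO at week 16, against 3.32 and 3.24 in WT.

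The wider interferon pathway was read from 139 listed genes, 122 of them measured here, from ligands to antigen presentation. In DKO glands at week 16 against week 0, 4 were called higher and 0 lower in limma, and 118 were not called, with a median difference of 0.29; of all genes, 4.04% were called and 2.04% were called higher, so the share is near the background. The called genes were the GTPase Gbp5 (2.13 ± 0.37, adjusted p 0.00465), which assists inflammasome assembly, the immunoproteasome subunit Psmb8 (1.36 ± 0.33, adjusted p 0.0279), and Ifitm1 (3.22 ± 0.84, adjusted p 0.0363) and Ifitm3 (0.92 ± 0.26, adjusted p 0.0488), membrane proteins that block virus entry. Over weeks 4 to 16, Gbp5 alone of the 122 was called (1.43 ± 0.29, adjusted p 0.0192), against 0.974% of all genes. KO and WT mice had 0 of 122 called over either span, and all 3 differences between genotypes in the change over weeks 4 to 16 had 0 called.
In DKO mice, Gbp5 was 3.93 and 3.76 at week 0, 5.48 and 4.77 at week 4, 5.52 and 5.02 at week 8, 4.79 and 4.69 at week 12, and 6.72 and 5.24 at week 16. As deposited, all 8 fed DKO arrays lie above the KO range of 3.72 to 4.43 and the WT range of 3.51 to 3.91, while the DKO week 0 arrays lie within the KO range. Ifitm1 was 11.01 and 7.13 in DKO at week 16, against 6.63 and 5.07 at week 0, and both week 12 arrays reached 8.99 or more. The 4 calls at week 16 use a spread shared by all 15 groups. Of the whole table, 5 genes were called at DKO week 16 with array weights and 5 with only the groups compared. The reported fit called 759. Without DKO week 16 replicate 1, 0 of the 4 kept a call: Gbp5 was at 1.39 (adjusted p 0.0640), Ifitm1 at 1.28 (0.440), Ifitm3 at 0.74 (0.238) and Psmb8 at 0.84 (0.260). Without DKO week 0 replicate 1, Psmb8 (0.0618) and Ifitm3 (0.108) lost the call, and without DKO week 0 replicate 2, Ifitm1 (0.0868) and Ifitm3 (0.0582) did.

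**Figure D4:**
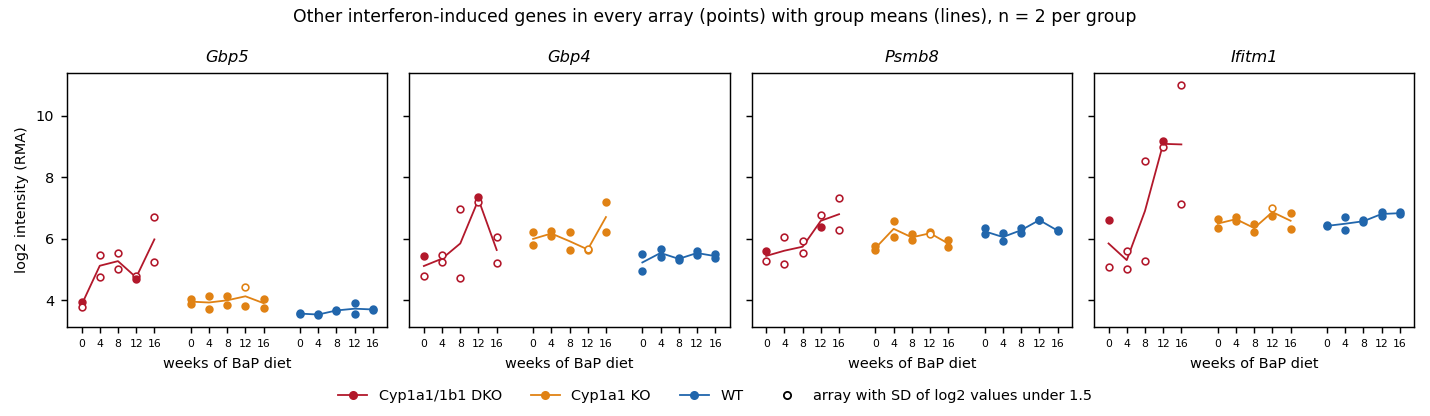
Log2 intensity of Gbp5, Gbp4, Psmb8 and Ifitm1 (vertical axis) against weeks of BaP diet in DKO, KO and WT mice; points are arrays, lines join means of 2 arrays, and open points are arrays with an SD of log2 values under 1.5. Gbp5 is at 4.69 or above in all fed DKO arrays and at most 3.91 in WT arrays.

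By role, the other guanylate-binding and immunity-related GTPases had 1 of 12 measured members called in DKO at week 16, Gbp5, against 4.04% of all genes called and 2.04% called higher, which is also the background of the lists that follow. Of the 12, 11 had differences above 0, with a median of 1.00. Igtp (1.19, adjusted p 0.0552), Gbp7 (1.09, 0.0554) and Gbp8 (1.89, 0.0798) did not pass, and Gbp9 was at -0.89. In KO mice at week 16, Gbp7 was at 1.15 and Igtp at 0.73 (adjusted p over 0.99 for both in limma; p 0.00168 and 0.0505 unadjusted). The interferon ligands had 0 of 17 called, with Ifna14 (1.05), Ifna11 (1.27) and Ifne (1.20) above 0 and Ifnl2 (-1.04) below. Receptors had 0 of 6 called, including Ifngr2 (0.82) and Ifngr1 (-0.89), the chains of the interferon gamma receptor. The transducers had 0 of 10 called, including Irf9 (0.57), a DNA-binding factor of the type I response, and Stat2 (-0.32).
The nucleic acid sensors had 0 of 14 called, with Dhx58 (1.22) and Sting1 (0.71) above 0 and Tbk1 (-0.60) below. Other type I induced genes had 2 of 36 called, Ifitm1 and Ifitm3, with Mx2 (1.55) and Oasl2 (1.01) not called. The list for the p200 family of Ifi208 had 0 of 9 called, and it held both Ifi211 (1.66) and Ifi205 (-1.80). It also counted Ifi47, which is an immunity-related GTPase and not a p200 protein. Antigen presentation had 1 of 10 called, Psmb8, with B2m, the light chain of MHC class I, at 0.57. The negative regulators had 0 of 8 called, including Ptpn2 (-1.12), a phosphatase of JAK and STAT proteins, and Adar (-0.78), which edits double-stranded RNA. At week 12, Gbp4 (2.16) and the DNA sensor Aim2 (2.17) were called in DKO mice (adjusted p 0.0448 and 0.0243 in limma); they were chosen after their values were seen. KO against WT over the 5 weeks called Iigp1 higher (0.89) and Mavs (-0.82) and Myd88 (-1.18) lower. That was 1 higher and 2 lower of 122, against 4.33% of all genes called. DKO against WT called 50 of the 122 higher and 18 lower, against 74.6% of all genes called and 43.6% called higher. DKO against KO called 37 higher and 15 lower, against 59.8% called and 34.0% called higher. At week 0, DKO against WT called 0 higher and 4 lower, against 3.90% of all genes.

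**Figure D5:**
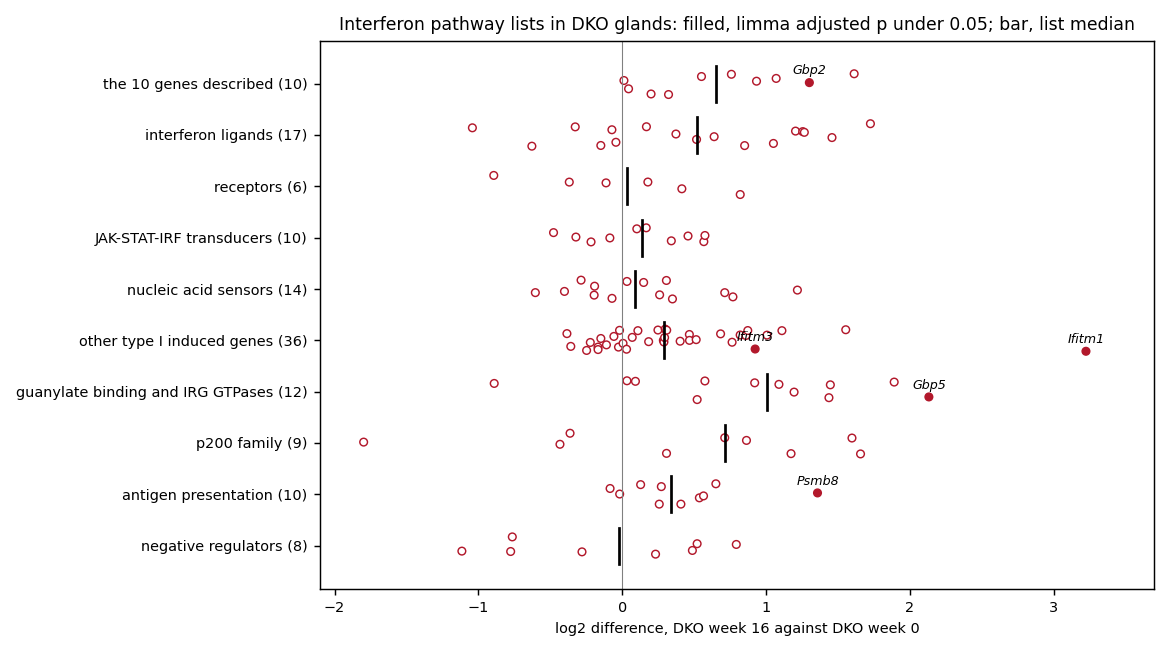
Points are the log2 differences of DKO week 16 against week 0 (horizontal axis) for the measured members of each interferon-pathway list (rows); genes called by limma are named. The GTPase list lies mostly to the right of 0, with Gbp5 at 2.13, and Ifitm1 is farthest to the right at 3.22.

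Some macrophage and neutrophil markers were called in the same DKO comparison, where 4.04% of all genes were called. At week 16, 3 of 9 macrophage markers were called higher (C1qa 1.06, C1qc 1.75 and Msr1 2.30), and the mean of the list ran from 5.76 to 7.53 in the 8 fed DKO arrays, against 5.62 to 6.29 at week 0; Cd163 was at -1.26 and not called. The neutrophil list had 3 of 9 higher (S100a8, S100a9 and Cxcr2), with means of 5.07 to 6.94 in fed arrays, against 4.96 to 5.18 at week 0; Ly6g (-0.18), Mpo (0.19), Ltf (-1.69) and Retnlg (-0.43) were not called. T and NK lymphocyte markers had 0 of 9 called, with means of 4.63 to 5.46 in fed arrays, against 4.26 to 4.89 at week 0, and Cd3e was at 1.23 (adjusted p 0.0664 in limma). B and plasma cell markers had 0 of 5 called, with means of 4.72 to 5.54 in fed arrays, against 4.34 to 5.42 at week 0. Markers of plasmacytoid dendritic cells, a main source of interferon alpha in infection, had 0 of 6 called, with means of 4.82 to 5.46, against 4.65 to 5.41 at week 0. Among tissue markers, Krt1 (5.65) and Krt10 (3.35) of differentiating keratinocytes were the 2 of 6 called higher, with Ivl (-0.78), Trp63 (-0.84), Krt14 (-0.33) and Krt5 (0.057) not called. Of 7 sebocyte markers, 2 were called lower, Awat2 (-3.20) and Plin2 (-2.19). The part of these cell types in the changes of Gbp2, Gbp5 and Psmb8 was not tested.

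As a description of likeness, the mean deviation of the 10 members was set against all other genes over the 15 group means. The 5 most alike were Scara5, Duox2, Omg, Dppa3 and Tbx19, each with a Pearson correlation of 0.93. Over the 30 arrays these correlations were 0.70 to 0.83 and over the 21 arrays with the wider range 0.38 to 0.73. Groups and arrays share the narrow range of the DKO arrays, and 5 were picked from all genes.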

How the data were processed

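RNA was extracted from snap-frozen preputial glands and amplified with the Ovation Pico WTA kit, per the labels' protocols. The authors deposited RMA values, which are log2 intensities of probe sets and were used unchanged; the submitters' processing notes give RMA no version. The sources used here do not give the annotation build. Of 21212 probe sets, 18786 had 1 gene symbol, 6 several and 2420 none in the platform table; where a gene had several probe sets the one with the highest mean was used, giving 18784 genes. No array was identical to another. The number of arrays, 2 mice per group, limits the precision.

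One limma 3.58.1 fit (R 4.3.3) had a mean for each of 15 groups, with residual degrees of freedom 15 and prior degrees of freedom 6.91. Tests were two-sided, adjusted by Benjamini-Hochberg over all genes within a comparison, and genes with an adjusted p under 0.05 were called. A ± gives the standard error of the fit, or the SD where that is written. The fit gives all groups a shared spread per gene; array weights were 0.178 to 0.350 in DKO, 0.189 to 3.11 in KO and 1.44 to 6.39 in WT. A simulation over 18784 genes drew every array from the spread of each gene pooled over the 15 groups. With changes added to DKO week 16, 8% of 100 genes changed by 1 (log2) and 62% of 100 changed by 2 were called. There were 4 false calls. In the data the median within-group SD over all genes was 0.56 in DKO, 0.34 in KO and 0.17 in WT. The simulated shares therefore do not describe arrays with the DKO spread. Promoter windows came from RefSeq GRCm38.p6.

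Members and lists were chosen with earlier results of these data known. The rule for other genes took up to 4 of each pathway list with the smallest adjusted p in DKO week 16. It also allowed genes called in any comparison, up to a limit per list. Calls of pathway genes in DKO against WT or KO are counted above and were not a ground for naming a gene. Alternatives were quantile normalization, median centring, a low-value filter, trend and robust variance, array weights, replicate and label number blocks, the mean of a gene's probe sets, only the groups compared, no narrow-range arrays, and each array left out.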

Additional observations from a re-analysis of the deposited data

How the results depend on the processing

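Of 4644 member values under the alternatives, 134 uncalled ones changed sign, 58 lost a call, 10 gained one and 2 called ones reversed, both with the label number block: Rsad2 in DKO against WT (-0.070) and Ifi208 in DKO against KO (-0.16). In DKO at week 16, 1 member was called; 0 were with median centring, array weights, the replicate block, the label number block or only the groups compared, and leaving out 1 array gave 0 to 2. Gbp2 was called in 16 of 39 alternatives (difference 0.60 to 2.02, adjusted p 0.00171 to 0.931 in limma). Over weeks 4 to 16 in DKO, leaving out 1 array gave 0 to 1. In DKO against WT the count of 7 became 2 with quantile normalization (6999 genes called in all). It became 2 with the low-value filter (6421), which 2 members passed, and 0 with the label number block (160). In KO against WT the count of 0 became 1 (Mx1) with array weights, without narrow-range arrays and with only the groups compared. Of all genes, 3745 were called there with array weights and 3325 with only the groups compared, against 813 in the reported fit. In DKO against KO the count of 5 became 1 with quantile normalization (4948 genes called in all) and 1 with the filter (5196). It became 3 with array weights (8796) and 0 with the label number block (41). Called genes over the whole table ran from 5 to 3393 in DKO at week 16 (759 in the reported fit), from 2 to 1508 over weeks 4 to 16 (183), from 160 to 14453 in DKO against WT (14011), from 128 to 4876 in KO against WT (813) and from 41 to 12353 in DKO against KO (11229). Without narrow-range arrays no DKO array is left at weeks 4, 8 and 16, so the DKO comparisons above had no value there. The replicate numbers do not pair the samples: over 105 pairs of same-numbered arrays, the correlation of deviations ran from -0.55 to 0.67 and 16 were over 0.1. With the replicate block, 607 genes were called in DKO at week 16, 0 of them members.

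No background was measured, which limits what a small difference of a dim probe set shows. Counts in every contrast rest on 2 mice per group. The 95% intervals in DKO at week 16 reach 1.00 for Ifit1 and 1.09 for Ifit3, so differences up to that size lie within the interval. These intervals use the spread shared by all groups. The within-group SD of Ifit3 was 0.83 in DKO, 0.42 in KO and 0.19 in WT, so larger differences in DKO are not excluded. Exposure and age cannot be told apart.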
